A study of Mus musculus with 12 samples.

Results

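Prostaglandin synthesis enzymes and prostaglandin receptors were followed across fractions of mouse sensory ganglia enriched for neurons. The 10 genes were chosen by symbol out of the 22609 genes that were counted. They comprised 2 cyclooxygenases (Ptgs1 and Ptgs2), 2 terminal synthases (Ptges and Ptgds), 4 receptors for prostaglandin E2 (Ptger1, Ptger2, Ptger3 and Ptger4), the prostacyclin receptor Ptgir and the prostaglandin F2alpha receptor Ptgfr. The family was put forward with earlier results of these data in view, in which Ptgds stood out by opposite sex differences in the 2 ganglia. The sex differences of Ptgds are therefore given as a description, with no test. The study compared female and male trigeminal ganglia (TG), which supply the head, and dorsal root ganglia (DRG), which supply the body. There were 12 RNA-seq libraries in 4 groups of 3 (female TG, male TG, female DRG and male DRG). The animals were naive C57BL mice (C57BL/6J in the study's methods) that carried no transgene and received no treatment, aged 3 to 4 months by the labels, whereas the study's methods give a younger age. Females were in the estrous phase, according to the study's methods. Single-cell suspensions were separated on a Percoll gradient, which sorts cells by density, and the fraction rich in neurons was sequenced. The fraction is not pure, and whether libraries of different number or ganglion shared animals is not stated, so p-values measure only the spread between these libraries.

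Cyclooxygenases convert arachidonic acid, released from membrane lipids, into the unstable prostaglandin H2. Terminal synthases then make the individual prostaglandins from it, which leave the cell and act on G protein-coupled receptors of the same or neighbouring cells. In sensory ganglia prostaglandin E2 and prostacyclin are known for sensitizing nociceptors, the neurons that detect noxious stimuli, and cyclooxygenases are the targets of non-steroidal anti-inflammatory drugs.

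Reads in genes ranged from 7511765 to 15396090 per library. A level of 3 counts, used as the detection floor, corresponded to 0.207 to 0.357 CPM (reads of a gene set against all reads in genes, after TMM scaling). All 10 genes were tested in each comparison. All 13 sensory neuron markers were detected in every library, with Tubb3, a neuronal tubulin, at a mean of 2020 CPM. All 8 satellite glia markers were detected as well, led by Apoe at 2740 CPM, and so were the 8 myelinating Schwann cell markers. In each of the 4 groups the library numbered 3 differed more from the other two than they did from each other (chi-square per degree of freedom of 54.1 to 110 against 13.8 to 32.2). In such bulk fractions, fewer cells of a type and less RNA per cell cannot be told apart.

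Receptors for prostaglandin F2alpha and prostacyclin were the most abundant of the 10 members per length of exon. Prostanoid genes outside the 10 were not placed in this order, among them the receptor Ptgdr and the synthase Ptges3. Ptgdr averaged 51.8 CPM and Ptges3 78.3 CPM, beside 34.4 CPM for Ptgir and 81.6 CPM for Ptgfr. Ptgfr averaged 18.7 ± 7.65 CPM per kilobase (SD, n = 12) and Ptgir 10.3 ± 3.06 CPM per kilobase. Ptgfr lay above Ptgir in 10 of 12 libraries, and Ptgir lay above Ptges, the inducible prostaglandin E synthase, in 12 of 12. Both steps were larger than the SD of either gene. Ptges followed at 5.19 ± 1.75 CPM per kilobase, then Ptgds, the prostaglandin D synthase, at 4.26 ± 3.99, and Ptgs1, the constitutive cyclooxygenase, at 2.51 ± 1.14. Ptger4, Ptger3 and Ptgs2, the inducible cyclooxygenase, had means of 1.76, 1.69 and 1.60 CPM per kilobase. The lowest means were those of Ptger1, at 0.965, and Ptger2, at 0.796. From Ptges downwards, no neighbours in this order differed by more than the larger of their SDs.

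**Figure D1:**
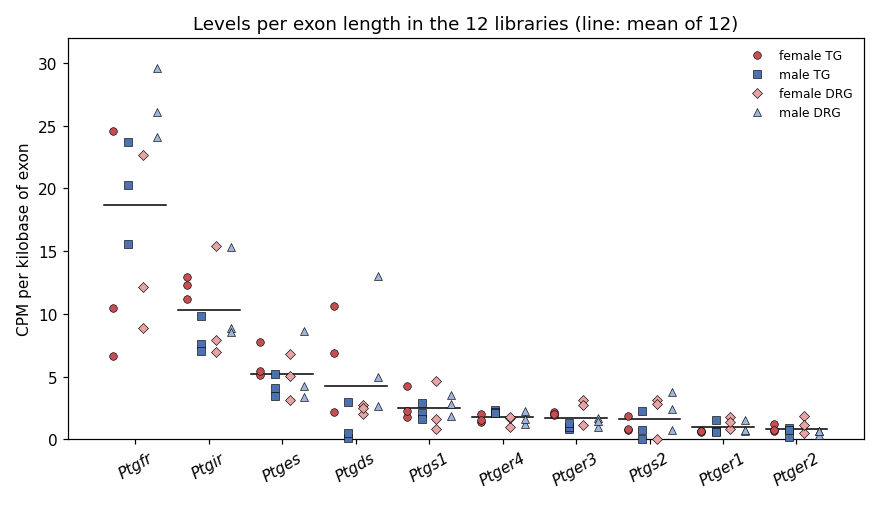
Each point is 1 library, the vertical axis is the level in CPM per kilobase of exon, and the black line is the mean of the 12 libraries. Ptgfr (mean 18.7) and Ptgir (mean 10.3) stand above the other 8 genes, and the 3 male DRG libraries are among the 4 highest for Ptgfr.

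Between females and males, 3 of the 10 members did not overlap in TG, beside 23.8% of all genes. In DRG 1 of 10 did not, beside 17.4%. These members were receptors, as were 6 of the 10. In TG, Ptger3 and Ptgir were higher in each female library than in any male library, whereas Ptger4 was lower. For Ptger4 this held on the TMM scale only. By library totals, female TG 1 (14.5 CPM) lay above the male TG libraries (14.3, 13.4 and 13.9 CPM). In DRG, Ptgfr was lower in each female library than in any male library. None of these differences passed after adjustment over all genes. With edgeR's quasi-likelihood test, 0 of the 9 members other than Ptgds passed an adjusted p under 0.05 in TG (smallest adjusted p = 0.206), where 0% of the 14004 genes tested passed. In DRG 0 of 9 passed (smallest adjusted p = 0.365), against 0% of 13958 genes. At an unadjusted p under 0.05 there were 2 of 9 in TG (Ptger3 and Ptgir), beside 20.7% of all genes, and 1 of 9 in DRG (Ptgfr), beside 11.8%. DESeq2 called 0 of 9 in each ganglion, beside 5.34% of genes in TG and 2.27% in DRG. It had 2 in TG and 1 in DRG at an unadjusted p under 0.05, beside 22.7% and 13.1%, but gave no adjusted p for 2 of them in TG and 7 in DRG.

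A less strict rule was adapted from that of the study, with a fold above 2, an unadjusted p under 0.05 and a mean above 1 CPM in the higher sex. The study used RPKM (CPM per kilobase) and a DESeq p, where CPM and the edgeR p stood in here. A minimum of 1 CPM per kilobase gave the same number of members. Ptger3 met it in TG, higher in females, so that 1 of the 9 members did, beside 7.38% of all genes. Ptger3 no longer met it without female TG 1, female TG 2, male TG 1 or male TG 2, in a fit of all 12 libraries or with the replicate number as a block, and Ptgfr met it in TG without female TG 3 and in DRG without female DRG 3. In DRG 0 of 9 met it, beside 4.94%. Ptgds met it in both ganglia, higher in females in TG and higher in males in DRG, which is how it came to be chosen. The sexes did not overlap in TG for 3 of the 10 members, beside 23.8% of all genes, and in DRG for 1 of 10, beside 17.4%. Neither share is a result about the family. The median log2 fold change, female over male, of the 9 other members was 0.39 in TG and -0.12 in DRG, beside 0.05 and 0.02 over all genes tested.

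**Figure D2:**
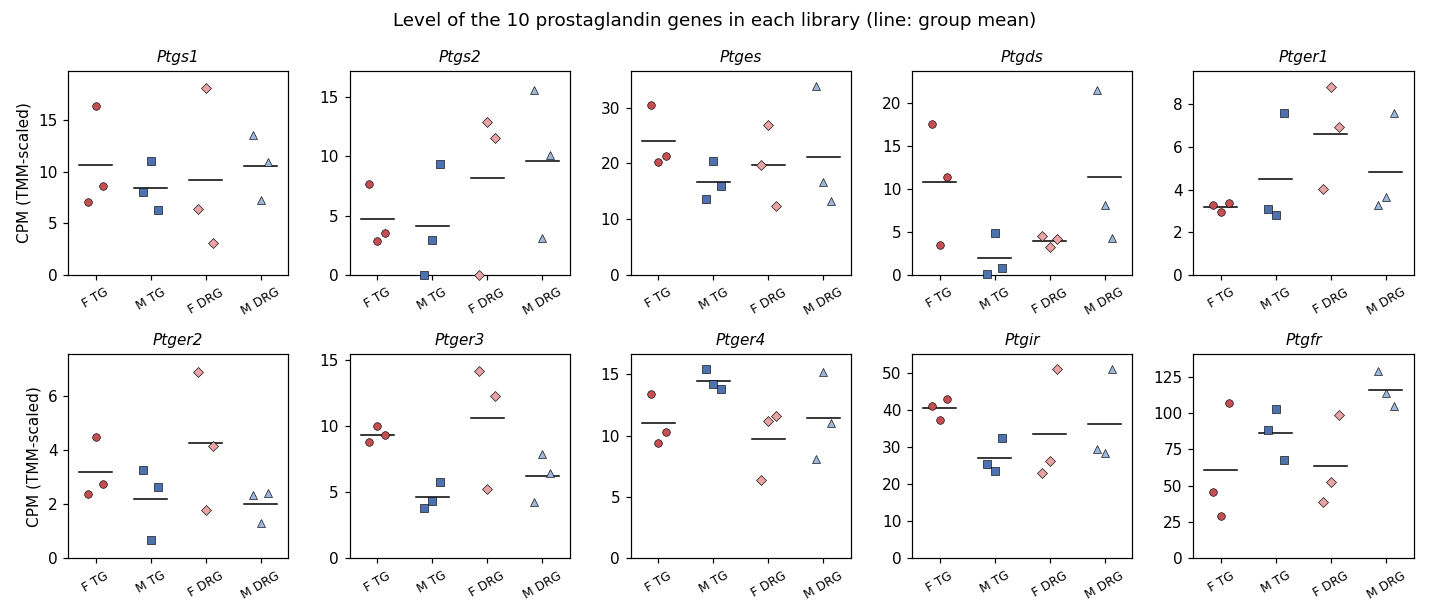
Each panel shows 1 gene, with CPM on the vertical axis, 1 point per library and a line at the mean of each group of 3. Female and male TG points separate for Ptger3, Ptger4 and Ptgir, that of Ptger4 on the TMM scale only. Female and male DRG points separate for Ptgfr, and Ptgs2 was at 0 counts in 1 female DRG and 1 male TG library.

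The sex effect was also compared between the ganglia, as an interaction in a model of all 12 libraries. 0 of the 9 other members passed in edgeR (adjusted p = 0.9998 for each), where 0% of the 14829 genes tested passed, and 0 of 9 were under an unadjusted p of 0.05, beside 1.97%. DESeq2 also called 0 of 9 (0% of genes), with 0 under an unadjusted p of 0.05, beside 2.62%. Directions were therefore not shown to differ between TG and DRG for any of these 9 genes. Between the ganglia themselves, 0 of 10 members passed in edgeR, beside 0.964% of genes, and 0 of 10 had an unadjusted p under 0.05, beside 8.83%. DESeq2 called 0 of the 9 other than Ptgds, beside 2.25%, with 0 at an unadjusted p under 0.05, beside 10.4%. TG and DRG libraries overlapped for all 10, where 1.36% of genes did not overlap. The fitted log2 fold change, TG over DRG, was below 0 for 9 of the 10, with Ptger4 the exception, and its median was -0.20, beside -0.01 over all genes.

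**Figure D3:**
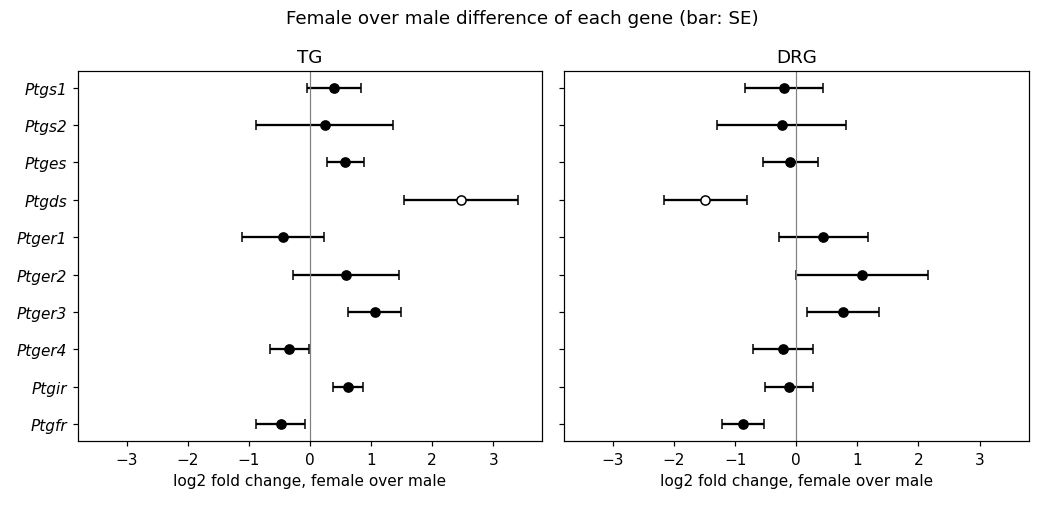
The horizontal axis is the log2 fold change, female over male, in TG (left) and DRG (right), with bars of 1 SE from edgeR. Filled points are the 9 genes that were tested, the open point is Ptgds, which was chosen for its opposite signs, and Ptger3 and Ptgir in TG and Ptgfr in DRG lie more than 2 SE from 0.

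Cyclooxygenases did not separate the sexes. Ptgs1 (mm9 chr2:36085946-36107792, plus strand) measured 7.04, 16.4 and 8.67 CPM in female TG and 8.01, 11.1 and 6.29 CPM in male TG. In DRG its levels were 6.42, 18.1 and 3.13 CPM in females and 13.6, 7.23 and 11 CPM in males. The single highest and the single lowest library were thus both female DRG, and the sexes overlapped in both ganglia. Its log2 fold change was 0.39 in TG (SE 0.44, 95% interval -0.57 to 1.36, edgeR adjusted p = 0.635) and -0.20 in DRG (SE 0.64, -1.58 to 1.19, adjusted p = 0.946).

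Ptgs2 (mm9 chr1:151947254-151955140, plus strand) is an immediate-early gene in many cells. It varied more between libraries than Ptgs1, with a coefficient of variation over the 12 libraries of 78.9% against 45.6%. Female TG libraries gave 7.66, 2.89 and 3.55 CPM, and male TG libraries 0, 2.97 and 9.34 CPM. Female DRG libraries gave 0, 12.9 and 11.5 CPM, and male DRG libraries 15.6, 3.10 and 10.1 CPM. The zeros, in female DRG 1 and male TG 1, allow levels of up to 0.357 and 0.273 CPM, whereas every other library held at least 33 counts. Its log2 fold change between the sexes, 0.24 in TG (SE 1.12) and -0.24 in DRG (SE 1.06), had 95% intervals of -2.22 to 2.71 and -2.54 to 2.06, so a several-fold difference in either direction was not detectable at this spread. Between the ganglia it had the largest difference of the 10 genes, -1.01 (SE 0.86, -2.82 to 0.79, adjusted p = 0.888), where TG averaged 4.4 ± 3.45 CPM and DRG 8.87 ± 6.04 CPM, each over 6 libraries (SD).

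Other immediate-early genes, such as Fos and Btg2, were set beside Ptgs2 because dissociation of tissue is known to induce them. Their summed level in TG was 768.7 to 1361 CPM in females and 442.9 to 880.5 CPM in males. In DRG it was 975.9 to 1142 CPM in females and 567.2 to 658.2 CPM in males, without overlap. Of the 13 genes tested, 13 were higher in female TG and 12 in female DRG, with 0 past an adjusted p under 0.05 in edgeR and 7 and 8, respectively, under an unadjusted 0.05, beside 20.7% and 11.8% of all genes. DESeq2 called 3 in TG and 4 in DRG, beside 5.34% and 2.27%, with no adjusted p for 1 of the 13 in TG and 3 in DRG. Ptgs2 and this sum went together in some libraries and not in others. In male TG the sums were 442.9, 554.9 and 880.5 CPM, beside 0, 2.97 and 9.34 CPM of Ptgs2, and female TG 1 was the highest female TG library in both. In DRG the library with the highest sum, female DRG 1 (1142 CPM), held 0 counts of Ptgs2. The part of these genes in the level of Ptgs2 was not tested.

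Ptges (mm9 chr2:30744991-30785383, minus strand), the synthase that works with Ptgs2, was present in every library. It measured 30.4, 20.2 and 21.4 CPM in female TG and 13.7, 20.4 and 15.9 CPM in male TG, where the lowest female and the highest male library barely overlapped. In DRG it measured 19.7, 26.9 and 12.4 CPM in females and 33.8, 16.7 and 13.2 CPM in males, with overlap. The log2 fold change was 0.58 in TG (SE 0.30, 95% interval -0.09 to 1.25, adjusted p = 0.297) and -0.10 in DRG (SE 0.45, -1.07 to 0.87, adjusted p = 0.966).

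Ptgds (mm9 chr2:25322229-25325566, minus strand), the lipocalin-type synthase of prostaglandin D2, had the most variable level of the family, with a coefficient of variation of 93.8% over the 12 libraries. In female TG it measured 17.5, 3.54 and 11.4 CPM, and in male TG 0.182, 4.84 and 0.884 CPM. The male TG values rested on 2, 70 and 9 counts, the first below the detection floor. In female DRG it measured 4.52, 3.29 and 4.15 CPM, a narrow range, and in male DRG 21.5, 8.16 and 4.33 CPM. Female and male libraries overlapped in both ganglia, by male TG 2 and female TG 2 in one and by male DRG 3 and female DRG 1 in the other. The fitted log2 fold change, female over male, was 2.47 in TG (SE 0.93) and -1.49 in DRG (SE 0.68), a difference of 3.93 (SE 1.24). Without male DRG 1 the value in DRG was -0.63, and without male TG 2 the value in TG was 4.36. TG against DRG, averaged over the sexes, gave -0.53 (SE 0.60, adjusted p = 0.944).

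Ptgds is known from leptomeningeal cells, which cover the brain, spinal cord and nerve roots, and from oligodendrocytes. Of 9 oligodendrocyte markers, 8 were at or near 0, each with a mean of at most 0.375 CPM. Cnp, the ninth, which Schwann cells also express, had a mean of 207 CPM. The summed level of 9 leptomeningeal markers was higher in female than in male libraries of both ganglia, from 48.3 to 61.8 against 21.0 to 24.5 CPM in TG and from 50.6 to 75.0 against 15.1 to 44.0 CPM in DRG. The log2 fold change, female over male, was above 0 for 8 of the 9 in TG and 7 in DRG (medians 1.48 and 0.50). In DRG the sum rests most on Igf2 (means of 25.2 in females against 10.2 CPM in males), whereas Slc6a13 was at 5.61 against 5.96 CPM. At most 2 of the 9 were at 0 in a library. In TG the sums of the sexes had the order of the Ptgds means, and in DRG the opposite order. Among male DRG libraries, number 3 had the lowest sum (15.1 CPM) and the lowest Ptgds (4.33 CPM). Male DRG 1, with the highest Ptgds of all libraries, had a leptomeningeal sum of 36.8 CPM, and male DRG 2, with 8.16 CPM of Ptgds, one of 44.0 CPM. Their part in the level of Ptgds was not tested. Ptgdr, a receptor for prostaglandin D2, averaged 51.8 CPM over the 12 libraries, with log2 fold changes of -0.27 in TG and -0.37 in DRG (edgeR adjusted p = 0.694 and 0.774).

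**Figure D4:**
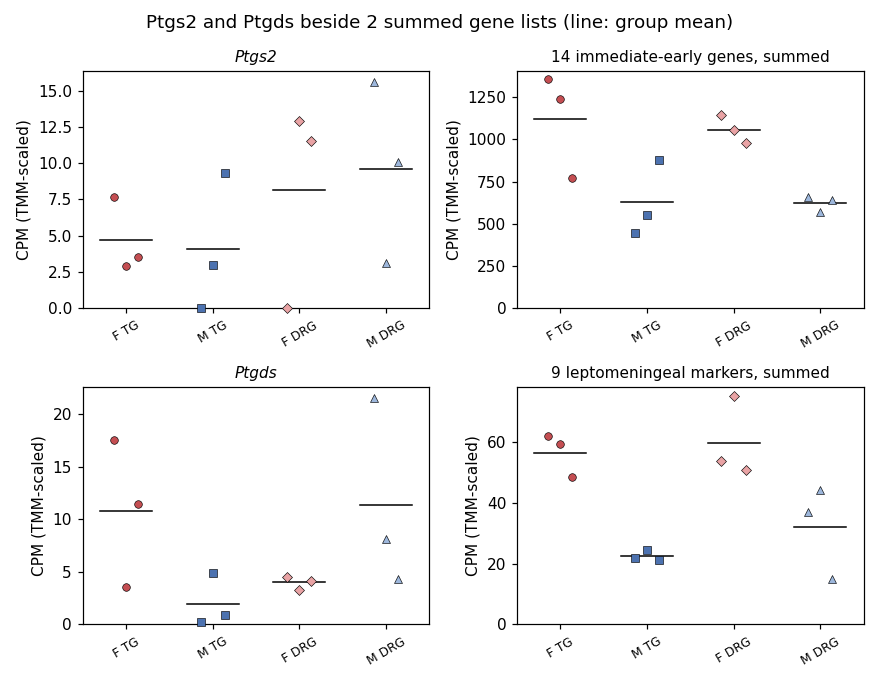
Levels of Ptgs2 and Ptgds (left) are shown beside the summed levels of 14 immediate-early genes and 9 leptomeningeal markers (right), all in CPM, with 1 point per library and a line at each group mean. Both sums are higher in female than in male DRG without overlap, whereas the highest Ptgs2 and Ptgds levels, 15.6 and 21.5 CPM, belong to a male DRG library.

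Receptors for prostaglandin E2 signal through different G proteins. Ptger1 (EP1) raises intracellular calcium, Ptger2 (EP2) and Ptger4 (EP4) raise cyclic AMP, and Ptger3 (EP3) mostly lowers it. In TG, EP3 and EP4 transcripts had opposite orders between the sexes on the TMM scale, although neither difference passed the adjusted test. Ptger3 measured 8.80, 10.0 and 9.30 CPM in female TG and 3.82, 4.35 and 5.80 CPM in male TG. Each female library thus lay above each male library, with a log2 fold change of 1.06 (SE 0.43, 95% interval 0.12 to 2.0, adjusted p = 0.209). Under the 13 other settings its log2 fold change in TG ran from 0.94 to 1.25 and its adjusted p from 0.0978 to 0.696. On the TMM scale Ptger4 had the opposite order, with 13.4, 9.40 and 10.3 CPM in female TG and 15.4, 14.2 and 13.8 CPM in male TG. Its log2 fold change was -0.34 (SE 0.32, -1.04 to 0.36, adjusted p = 0.560). By library totals the sexes overlapped for Ptger4, as female TG 1 (14.5 CPM) lay above every male TG library.

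Expressed as a ratio within each library, which does not depend on how libraries are scaled, Ptger3 per kilobase was 0.960, 1.56 and 1.31 times Ptger4 in female TG. In male TG the ratio was 0.362, 0.446 and 0.615. No male TG library reached the lowest female TG ratio. In female DRG the ratio spread from 0.683 to 3.21, around the male DRG ratios of 0.756 to 0.860. As a share of all 4 receptors per kilobase, Ptger3 made up 39.3 ± 2.16% in female TG and 21.8 ± 3.49% in male TG, and Ptger4 31.8 ± 6.23% and 47.4 ± 9.45% (SD, n = 3). The sexes overlapped in TG for the Ptger4 share, with 38.4% in female TG 1 and 37% in male TG 3. The ratio of Ptger3 to Ptger4 was picked after its values were seen, and no test was made of it.

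**Figure D5:**
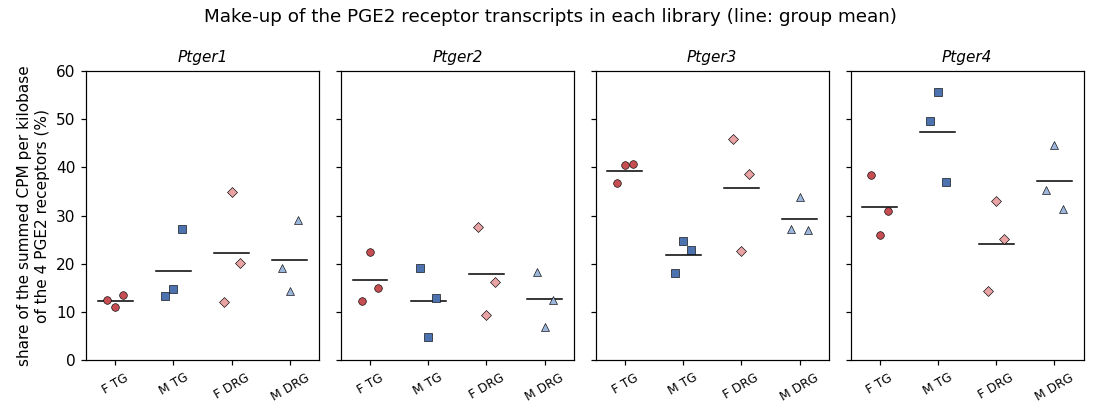
Each panel gives the share of 1 receptor in the summed CPM per kilobase of the 4 prostaglandin E2 receptors, in percent, with 1 point per library and a line at each group mean. In TG the 3 female libraries lie above the 3 male libraries for Ptger3 (means 39.3% and 21.8%), whereas the sexes overlap for Ptger4. In DRG female and male libraries overlap for all 4 receptors.

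In DRG, Ptger3 measured 14.2, 5.25 and 12.3 CPM in females and 4.30, 7.88 and 6.46 CPM in males. Female DRG 2 lay within the male range, and the log2 fold change was 0.77 (SE 0.59, 95% interval -0.51 to 2.05, adjusted p = 0.655). Ptger4 measured 6.42, 11.2 and 11.6 CPM in female DRG and 8.13, 15.2 and 11 CPM in male DRG, which overlapped (log2 fold change -0.22, SE 0.49, adjusted p = 0.913). The interaction was 0.25 for Ptger3 (SE 0.73, -1.30 to 1.79) and -0.16 for Ptger4 (SE 0.58, -1.38 to 1.06), so intervals of both included equal effects in the 2 ganglia.

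Ptger1 was at 2.97 to 3.39 CPM in the 3 female TG libraries. Male TG libraries gave 3.10, 2.83 and 7.57 CPM, where male TG 3 alone lay apart. In DRG the levels were 4.04, 8.81 and 6.95 CPM in females and 3.27, 3.66 and 7.57 CPM in males, with overlap. The log2 fold changes were -0.44 in TG (SE 0.67, adjusted p = 0.741) and 0.44 in DRG (SE 0.73, adjusted p = 0.871), and without male TG 3 the former was 0.16. Exons of Ptger4 share 1015 bases with the pseudogene Gm15937 and 82 bases with Ttc33, both on the opposite strand. As the strand setting of the counting is not stated, reads of these pairs may not be separated.

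Ptger2, the least abundant member per kilobase, rested on 10 to 58 counts per library. It measured 2.38, 4.50 and 2.76 CPM in female TG and 3.28, 0.691 and 2.65 CPM in male TG. Female DRG libraries gave 6.90, 1.78 and 4.15 CPM and male DRG libraries 2.34, 1.31 and 2.44 CPM. Both pairs of groups overlapped, and the log2 fold changes of 0.59 (SE 0.87, adjusted p = 0.729) and 1.07 (SE 1.08, adjusted p = 0.753) were about as large as their errors.

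Ptgir (mm9 chr7:17491839-17496254, plus strand), the prostacyclin receptor of nociceptors, measured 41.1, 37.4 and 43.1 CPM in female TG and 25.4, 23.5 and 32.6 CPM in male TG. All female TG libraries lay above all male TG libraries, with a log2 fold change of 0.62 (SE 0.25, 95% interval 0.07 to 1.17, adjusted p = 0.206). In DRG it measured 23.2, 26.4 and 51.2 CPM in females and 29.6, 28.4 and 51.1 CPM in males. The sexes overlapped there (log2 fold change -0.12, SE 0.39, -0.98 to 0.73, adjusted p = 0.946), and in both the library numbered 3 was the high one. The interaction was 0.69 (SE 0.48, -0.31 to 1.69).

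Ptgfr (mm9 chr3:151461882-151500594, minus strand), which couples to calcium release, had the highest CPM of the family. Female DRG libraries measured 38.5, 52.7 and 98.8 CPM and male DRG libraries 129, 114 and 105 CPM. Each female value lay below each male value, although female DRG 3 came close, and the log2 fold change was -0.87 (SE 0.34, 95% interval -1.61 to -0.13, adjusted p = 0.365). In TG the levels were 45.7, 29.0 and 107 CPM in females and 88.3, 103 and 67.9 CPM in males. Female TG 3 was the highest of the 6, so the sexes overlapped, with a log2 fold change of -0.48 (SE 0.40, -1.36 to 0.41, adjusted p = 0.515). Without female TG 3 it was -1.21, with an adjusted p of 0.0123 in edgeR, and Ptgfr was then the 1 member that passed. In that setting 23.6% of all genes passed, so the call is not particular to Ptgfr. The interaction was 0.36 (SE 0.57, -0.83 to 1.55).

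Ptgfr was set beside the summed level of the 13 sensory neuron markers and the reads outside genes. The sum was 8304, 8751 and 13910 CPM in female DRG and 13230, 14060 and 12200 CPM in male DRG. In TG it was 8084, 8147 and 10980 CPM in females and 11040, 11020 and 8478 CPM in males. In female TG, female DRG and male TG the library that stood apart in Ptgfr, number 3 each time, also stood apart in this sum, in the same direction, and female DRG 1, female DRG 2, female TG 1 and female TG 2 were low in both. The sum rests most on abundant markers such as Tubb3 and Snap25, whose log2 fold changes, female over male, were -0.25 and -0.78 in TG and -0.76 and -0.55 in DRG. The list as a whole went both ways, with 7 of 13 above 0 in TG (median 0.02) and 5 of 13 in DRG (median -0.11). Among them were Scn10a (0.69 and 0.43) and Avil (0.48 and 0.45). In edgeR 0 of 13 passed, with 5 in TG and 3 in DRG under an unadjusted 0.05, beside 20.7% and 11.8% of all genes. Reads outside annotated genes made up 47.7% to 50.4% of the reads in and outside genes in these 4 libraries, 43.5% in female TG 3, 46.4% in female DRG 3 and 38.2% to 42.6% in male DRG. They made up 47.9% in male TG 3, against 37.6% and 40.8% in the other male TG libraries. Their part in the sex difference of Ptgfr was not tested.

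The sexes of 4 members did not overlap in a ganglion on the TMM scale, and their promoters were read from RefSeq. The build, GRCm38.p6, is not the build of the counts. Given are the 150 bases before the transcription start, 5′ to 3′ on the strand of the gene. They are shown to let these promoters be compared. Capitals mark the GC box GGGCGG, on either strand, and CCAAT, searched likewise. Ptger3 is at chr3:157566726-157566875 (plus strand), Ptger4 at chr15:5244188-5244337 (minus strand), Ptgir at chr7:16906340-16906489 (plus strand) and Ptgfr at chr3:151837529-151837678 (minus strand).
Ptger3: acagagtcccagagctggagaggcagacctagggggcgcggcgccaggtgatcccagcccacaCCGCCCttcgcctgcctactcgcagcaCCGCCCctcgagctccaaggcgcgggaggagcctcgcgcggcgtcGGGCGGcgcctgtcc
Ptger4: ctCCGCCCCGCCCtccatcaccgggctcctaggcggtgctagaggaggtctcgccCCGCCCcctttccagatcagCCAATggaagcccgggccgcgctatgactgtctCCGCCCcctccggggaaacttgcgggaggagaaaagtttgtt
Ptgir: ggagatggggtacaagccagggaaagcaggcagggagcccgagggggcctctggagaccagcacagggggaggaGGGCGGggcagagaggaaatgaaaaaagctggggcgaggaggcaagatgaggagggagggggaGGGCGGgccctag
Ptgfr: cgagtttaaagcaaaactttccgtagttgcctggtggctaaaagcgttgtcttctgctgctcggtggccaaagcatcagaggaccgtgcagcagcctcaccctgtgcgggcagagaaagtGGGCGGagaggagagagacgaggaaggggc

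GC boxes, to which Sp1-family factors are known to bind, were in the 250 bases before the start of 6 of the 9 members with an entry (Ptgs2, Ptges, Ptger3, Ptger4, Ptgir and Ptgfr) and of 32.7% of the 32851 promoters in the table. CCAAT was in 2 of the 9 (Ptger2 and Ptger4) and in 33.8% of all promoters. TATAA was in 0 of the 9, against 22.8% of all promoters. Ptger3, Ptger4, Ptgir and Ptgfr, whose sequences are shown, all held GC boxes, so presence of this box did not set these genes apart from each other. A match is a description of the sequence and says nothing of binding in these cells.

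Across the 12 libraries, the genes with the most similar pattern were sought among genes with a mean of at least 5 CPM, by Pearson correlation of log2 CPM. For Ptgfr these were Trappc6b (r = 0.966), Mnat1 (0.965) and Ube2j1 (0.961). Ptgir was most like Nefl (0.901), a neurofilament subunit, then Rimkla (0.869) and Mras (0.867). For Ptger3 they were Zfp64 (0.903), Aldh18a1 (0.900) and Glt25d1 (0.892), and for Ptger4 Ralb (0.908), Gpr37 (0.897) and Gins3 (0.892). Ptgds was most like Fam3a (0.853), Chrnb2 (0.846) and Tle1 (0.805), followed by Kctd7, Pwwp2b, Mfsd10, Creld1 and Ptov1 (0.762 to 0.781). Ptges was most like Kcnk5 (0.908), Tpra1 (0.875) and 4930572J05Rik (0.850), Ptgs1 like Ppic (0.832), Als2cl (0.817) and Rgma (0.799), and Ptgs2 like Gtpbp3 (0.866), Cdk12 (0.862) and Snx29 (0.859). Ptger1 was most like F8 (0.909), Zeb2 (0.903) and Pla2r1 (0.889), and Ptger2 like Rad50 (0.924), Sox11 (0.852) and Pcdhga3 (0.830). These values share libraries, depth and scaling, were picked as the highest of 11436 or 11437 genes, and describe the pattern only.

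Genes around the family were counted in lists on arachidonate release, other prostanoid synthases and receptors, prostanoid transport and breakdown, the leukotriene branch and cyclic AMP signalling, 65 genes in all. In TG 0 of the 50 tested passed an adjusted p under 0.05 between the sexes in edgeR, with 10 of 50 under an unadjusted 0.05, beside 20.7% of all genes. DESeq2 called 2 (Adcy5 and Pla2g6), beside 5.34% of all genes, but gave no adjusted p for 10 of the 50. Without female TG 3 edgeR called 11 of 51, beside 23.6%. These shares are near those of all genes. The criteria adapted from the study were met by 4 of the 50, all higher in females, beside 7.38% of all genes. Pla2g6, a calcium-independent phospholipase, averaged 22 ± 7.01 CPM in the 3 female and 8.10 ± 1.27 CPM in the 3 male libraries (SD). Adenylyl cyclases Adcy5 (39.6 ± 14.1 against 19.3 ± 1.30 CPM) and Adcy6 (35.1 ± 13.5 against 18.1 ± 1.95 CPM) and the cyclic AMP sensor Rapgef3 (17.0 ± 4.33 against 6.47 ± 5.05 CPM) were the other three.

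In DRG 0 of 47 passed in edgeR, with 5 of 47 under an unadjusted 0.05, beside 11.8% of all genes. DESeq2 called 1 (Abcc4), beside 2.27%, but gave no adjusted p for 25 of the 47. The criteria were met there by 3 of 47, beside 4.94% of all genes, namely by Abcc4, an exporter of prostaglandins and cyclic nucleotides, higher in females (53.4 ± 6.86 against 25.3 ± 4.17 CPM), and by 2 synthases that were higher in males. Ptges3, the cytosolic prostaglandin E synthase and a co-chaperone, averaged 56.2 ± 16.6 CPM in females and 120 ± 47.7 CPM in males, and 2810405K02Rik, a prostamide and prostaglandin F synthase, 18.9 ± 1.75 and 42.7 ± 19.5 CPM. All 3 had the same direction in TG without meeting the criteria. Female and male TG means were 46.9 and 33.4 CPM for Abcc4 and 22.7 and 36.6 CPM for 2810405K02Rik. For Ptges3 they were 45.3 and 92 CPM, a fold of 1.97, just under the limit (edgeR adjusted p = 0.167). For the interaction 0 of 51 passed in edgeR and 0 in DESeq2, with 0 under an unadjusted 0.05 in either, beside 1.97% and 2.62% of all genes.

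Between the ganglia 1 of 51 passed in edgeR, beside 0.964% of all genes, with 8 under an unadjusted 0.05, beside 8.83%. Ptgr1, which breaks down prostaglandins and leukotriene B4, was lower in TG than in DRG, at 12 ± 3.76 against 28.9 ± 11.2 CPM (SD, n = 6, log2 fold change -1.27, SE 0.27, edgeR adjusted p = 0.0252). TG and DRG libraries overlapped, and the call was lost without any single one of female DRG 1, female TG 1, female TG 2, male DRG 1, male DRG 2 or the 3 male TG libraries. Adcy9, an adenylyl cyclase, averaged 50.7 ± 9.26 CPM in TG and 28.6 ± 4.11 CPM in DRG without overlap, with an adjusted p of 0.0521 in edgeR. DESeq2 called both Ptgr1 and Adcy9, beside 2.25% of all genes.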

How the data were processed

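The authors removed ribosomal RNA, sequenced the libraries, aligned reads to the mouse build mm9 with TopHat2 and counted them per gene with HTSeq. The deposited files hold raw counts per gene symbol, without normalization. Versions, the annotation and the strand setting are not given in the sources used here. Summary lines that name no gene were left out of library sizes and tests. They held reads outside genes, at 37.6% to 50.4% of the reads in and outside genes.

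Groups came from the sample titles, and 0 columns were left unmapped. Counts were tested with edgeR 4.0.16 in R 4.3.3 (TMM factors, filterByExpr, quasi-likelihood F-test, Benjamini-Hochberg adjustment over all genes tested), in the 6 libraries of each ganglion for sex and in 1 model of 12 libraries for the interaction and for TG against DRG. This test replaced the DESeq test of the authors, CPM replaced RPKM in the study's criteria, and DESeq2 1.42.0 was an alternative. Other alternatives were library totals without TMM factors, no filter on low counts, a replicate block, a correction for GC content and length, a fit of all 12 libraries, and leaving out libraries. CPM values are TMM-scaled over the 12 libraries. Standard errors are the log2 fold change divided by the root of F, and intervals use 95% of the t distribution. Exon lengths came from the GENCODE annotation of mm9, which matched 95.8% of genes. Similar patterns were sought on log2 CPM with a prior count of 2. The floor of 3 counts covers counting error only, as amplified reads are not independent molecules. The fitting code was tested on simulated data.

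The members and lists were chosen with earlier results of these data known. Named were all 10 members, the listed pathway genes that passed an adjusted p of 0.05 or met the criteria adapted from the study, the most abundant 2 genes of a list where needed, and the 8 genes most like Ptgds or 3 most like another member. Ptgdr falls under the most abundant genes, and Adcy9, Tubb3, Snap25, Scn10a and Avil were named after their values were seen.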

Additional observations from a re-analysis of the deposited data

Results flagged for a closer look

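For each member, the 6 libraries of a ganglion were searched for a library far from the others, which gave 20 groups, of which chance alone flags about 1. In DRG, male DRG 1 had 21.5 CPM of Ptgds, and the gap to the next library was 0.732 of the whole range. In TG, male TG 3 had 7.57 CPM of Ptger1, with a gap of 0.882 of the range, while the other 5 TG libraries lay between 2.83 and 3.39 CPM. What sets these libraries apart was not tested.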

How the results depend on the processing

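No member was called in the main analysis. Of the members' log2 fold changes under all settings, 604 kept their sign and side of the threshold, 55 changed sign without being called or, for Ptgds, moved by more than the spread between libraries, and 1 passed, that of Ptgfr in TG without female TG 3. For members at an adjusted p under 0.05, leaving out 1 library gave 0 to 1 in TG. Members meeting the criteria adapted from the study, 2 in TG (Ptger3 and Ptgds) and 1 in DRG (Ptgds, which was chosen for this difference), ranged from 0 to 3 for TG and, for DRG, from 0 to 1 when 1 library was left out. In TG the count was 0 without female TG 1, 3 without female TG 3 and 1 without female TG 2 or any male TG library, and in DRG it was 0 without female DRG 2, male DRG 1 or male DRG 2. Of the 9 members other than Ptgds, 0 to 2 met them in TG and 0 to 1 in DRG under these settings. A fit of all 12 libraries gave 1 in TG and 0 in DRG, and library totals without TMM factors or a correction for GC content and length gave 0 in DRG. With the replicate block the counts were 0 in TG and 0 in DRG, and with the replicate block and the GC correction 1 and 0. The replicate numbers could not be shown to pair the libraries, as correlations of same-numbered deviations ran from -0.098 to 0.010 between the sexes in TG, 0.032 to 0.168 in DRG, and 0.028 to 0.216 between the ganglia. Each library correlated best with its own number in 6 of 6 cases between the sexes in DRG, 0 of 6 in TG and 4 of 6 between the ganglia of each sex. Listed pathway genes past an adjusted p under 0.05 ranged from 0 to 11 between the sexes in TG and from 0 to 2 between the ganglia when 1 library was left out, and numbered 2 between the ganglia without TMM factors. With library totals the median over all genes of the female over male value was 0.16 on the log2 scale in TG, instead of 0.05, and 0.19 in DRG, instead of 0.02, and members at 0.01 to 0.09 in DRG there (Ptgs1, Ptges and Ptgir) lay below that median. The same setting moved the female TG means of Ptger1, Ptger3 and Ptgir to 3.45, 10.1 and 43.6 CPM. With it the sexes overlapped in TG for Ptger4, as female TG 1 lay above the male TG libraries. Without female DRG 1 and female TG 3 together, a setting added with the data known, the interaction of Ptgfr was -0.60. The causes were not tested. Depth limits Ptger2, Ptgds and Ptgs2, which had libraries of 10 or fewer counts.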
